A study of Mus musculus with 18 samples.

Results

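The genes described here are the 7 that carry out presentation by major histocompatibility complex (MHC) class II and that the deposited count table lists under the mouse symbols Ciita, H2-Aa, H2-Ab1, H2-Eb1, Cd74, H2-DMa and H2-DMb1. They were taken from the 50600 rows of the table by their Ensembl identifiers, and all 7 were among the 15663 genes with enough counts to be tested. Bone marrow cells of WT or IRF5-/- (IRF5 KO) mice had been grown with GM-CSF for 8 days into bone marrow-derived macrophages (BMDMs). WT unstimulated and IRF5 KO unstimulated cells received no lipopolysaccharide (LPS). WT LPS DMSO and IRF5 KO LPS DMSO cells were given vehicle for 1 h and then 100 ng/ml LPS for 2 h. WT LPS defactinib and IRF5 KO LPS defactinib cells were given 3.5 μM defactinib, an inhibitor of the kinases FAK and PYK2, for 1 h and then the same LPS. Each of the 6 groups had 3 libraries, described as biological replicates, and no group received defactinib without LPS, so that every defactinib value is a value in LPS-stimulated cells. Unstimulated libraries carry DMSO in their labels and are marked as untreated in the column headings. The study's methods name purchased mice as male C57BL/6J, 8 to 11 weeks of age, without tying them to these cultures, and do not give the background of the IRF5 KO mice.

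MHC class II molecules are pairs of an α and a β chain that display peptides from the endosomal pathway to CD4+ T cells. CIITA, a coactivator that does not bind DNA itself, is the master switch of the system: it docks on RFX, CREB and NF-Y proteins that sit on the X and Y boxes of class II promoters and drives the chains, the invariant chain and H2-DM together. In mouse myeloid cells class II is carried at high levels by dendritic cells and by macrophages that have been activated or grown with GM-CSF, and shutdown of Ciita transcription is a known part of dendritic cell maturation.

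Ciita (ENSMUSG00000022504) lies on chr16:10488178-10527564 of mm10, plus strand, where Dexi overlaps it on the opposite strand. The class II region of chromosome 17 holds H2-DMa (ENSMUSG00000037649, chr17:34135182-34139101, plus strand), H2-DMb1 (ENSMUSG00000079547, chr17:34153072-34160230, plus strand) and H2-Ab1 (ENSMUSG00000073421, chr17:34263209-34269418, plus strand). It also holds H2-Aa (ENSMUSG00000036594, chr17:34282744-34287827, minus strand) and H2-Eb1 (ENSMUSG00000060586, chr17:34305877-34316199, plus strand), which the antisense gene Gm20513 overlaps. Read pairs were counted by strand over the exons, so that antisense pairs were kept apart. Of the 150-base windows of the longest coding transcript of H2-DMb1, 5.74% also occur in its neighbour H2-DMb2. A read pair lying wholly within shared sequence is lost when only unique alignments are counted. The other 6 genes shared no such window with another gene.

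The promoters that CIITA acts on are shown because the X and Y boxes are where it docks. RefSeq windows on GRCm38.p6, the assembly that mm10 renders, were at hand for 4 of the 7 genes. Those for H2-DMa start 12350 and 9664 bases before the counted gene and are not printed. The stretches run from 150 to 41 bases before the RefSeq start, at chr17:34287864-34287973 on the minus strand for H2-Aa, chr17:34305717-34305826 on the plus strand for H2-Eb1 and chr17:34153041-34153150 on the plus strand for H2-DMb1. The capitals mark the core of the X box (GNAACT) and the Y box (TGATTGG), in that order.
H2-Aa: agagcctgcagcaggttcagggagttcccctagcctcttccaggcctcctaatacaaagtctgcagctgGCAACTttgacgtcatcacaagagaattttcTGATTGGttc
H2-Eb1: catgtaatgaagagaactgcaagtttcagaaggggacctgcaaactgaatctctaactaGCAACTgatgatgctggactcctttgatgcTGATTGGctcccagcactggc
H2-DMb1: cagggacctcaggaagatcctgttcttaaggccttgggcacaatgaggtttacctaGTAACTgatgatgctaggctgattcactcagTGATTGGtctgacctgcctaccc
The X core and the Y box were 25 bases apart in H2-Aa, 24 in H2-Eb1 and 25 in H2-DMb1. A search of 32851 RefSeq windows of the same length, on both strands, found the Y box in 7.82% and the X core in 42.8% of them. Both in this order on the same strand and 20 to 30 bases apart were found in 41 windows, or 0.125%. The H2-Aa window also held the palindromic cyclic AMP response element TGACGTCA between the boxes, a match found in 1.79% of windows. The GAS motif TTCNNNGAA was in 8.3% of all windows and did not match in the windows of H2-Aa, H2-Eb1, H2-DMb1 or H2-DMa. The H2-DMb1 stretch ends inside the gene as it was counted, because the RefSeq start lies 119 bases after the first counted base. These matches describe the letters of the windows and not occupancy.

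Libraries held 39282181 to 61949143 counted read pairs. Within a group, pairs of libraries differed by a chi-square of 2.33 to 183.1 per gene, except for IRF5 KO LPS DMSO replicate 3, which differed from replicates 1 and 2 by 440.9 and 425.5 per gene. Most tests of the 7 genes that rest on this group are given with and without that library, while levels are means of all 3. Il6, a cytokine gene induced by LPS, was at 28.3, 27.9 and 382 counts per 1000000 read pairs (CPM) in its replicates 1, 2 and 3, at 0.405 to 0.712 in IRF5 KO unstimulated and at 92.8 to 104.1 in IRF5 KO LPS defactinib libraries. All 3 thus lay above the unstimulated libraries, replicates 1 and 2 below the defactinib libraries and replicate 3 above them. Beyond this the labels of the group were not tested, and its values are given under the labels as they stand. Irf5 itself was at 587 to 650 CPM in WT unstimulated and 335 to 397 in IRF5 KO unstimulated libraries, and at 434 to 475 in WT LPS DMSO against 345 to 435 in IRF5 KO LPS DMSO libraries, where the groups overlapped. With LPS and defactinib it was at 213.4, 234.4 and 379 CPM in WT and at 363.6, 391.9 and 352.9 CPM in IRF5 KO libraries, which also overlapped. The count covers all exons of Irf5 and so does not show whether the deleted part is transcribed. All 9 macrophage markers reached 1 CPM in at least 1 library of every group, and at least 10 of 12 dendritic cell markers did too. The summed macrophage markers ranged from 9748 to 19260 CPM and the summed dendritic cell markers from 5295 to 17500. The summed B cell markers, among them Cd79a and Pax5, reached 0.603 to 3.20 CPM. Cells of bulk cultures were measured, so that fewer class II positive cells and less class II RNA per cell cannot be told apart in anything that follows.

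CPM here were scaled by the trimmed mean of M-values (TMM). Levels per kilobase of counted exon let the genes be ranked against each other. Cd74 stood first in all 6 groups, from 5468 ± 567 CPM per kb (SD, n = 3) in IRF5 KO unstimulated to 10010 ± 2471 in IRF5 KO LPS DMSO cells. H2-Eb1 came next in all groups, from 1665 ± 241 in IRF5 KO unstimulated to 3282 ± 476 in WT LPS DMSO cells. The I-A chains followed within 1 SD of each other in every group, with 1620 ± 127 for H2-Aa and 1706 ± 89.9 for H2-Ab1 in WT unstimulated cells. The H2-DM chains were lower at 123 to 313 CPM per kb over the group means. Ciita was the lowest member in every group, at 38.1 ± 3.11 CPM per kb in WT unstimulated cells and 7.74 ± 0.869 in WT LPS defactinib cells. The 7 genes together took 1.37 to 2.74% of all counts of a library and the other 6 without Cd74 took 0.536 to 1.20%.

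**Figure D1:**
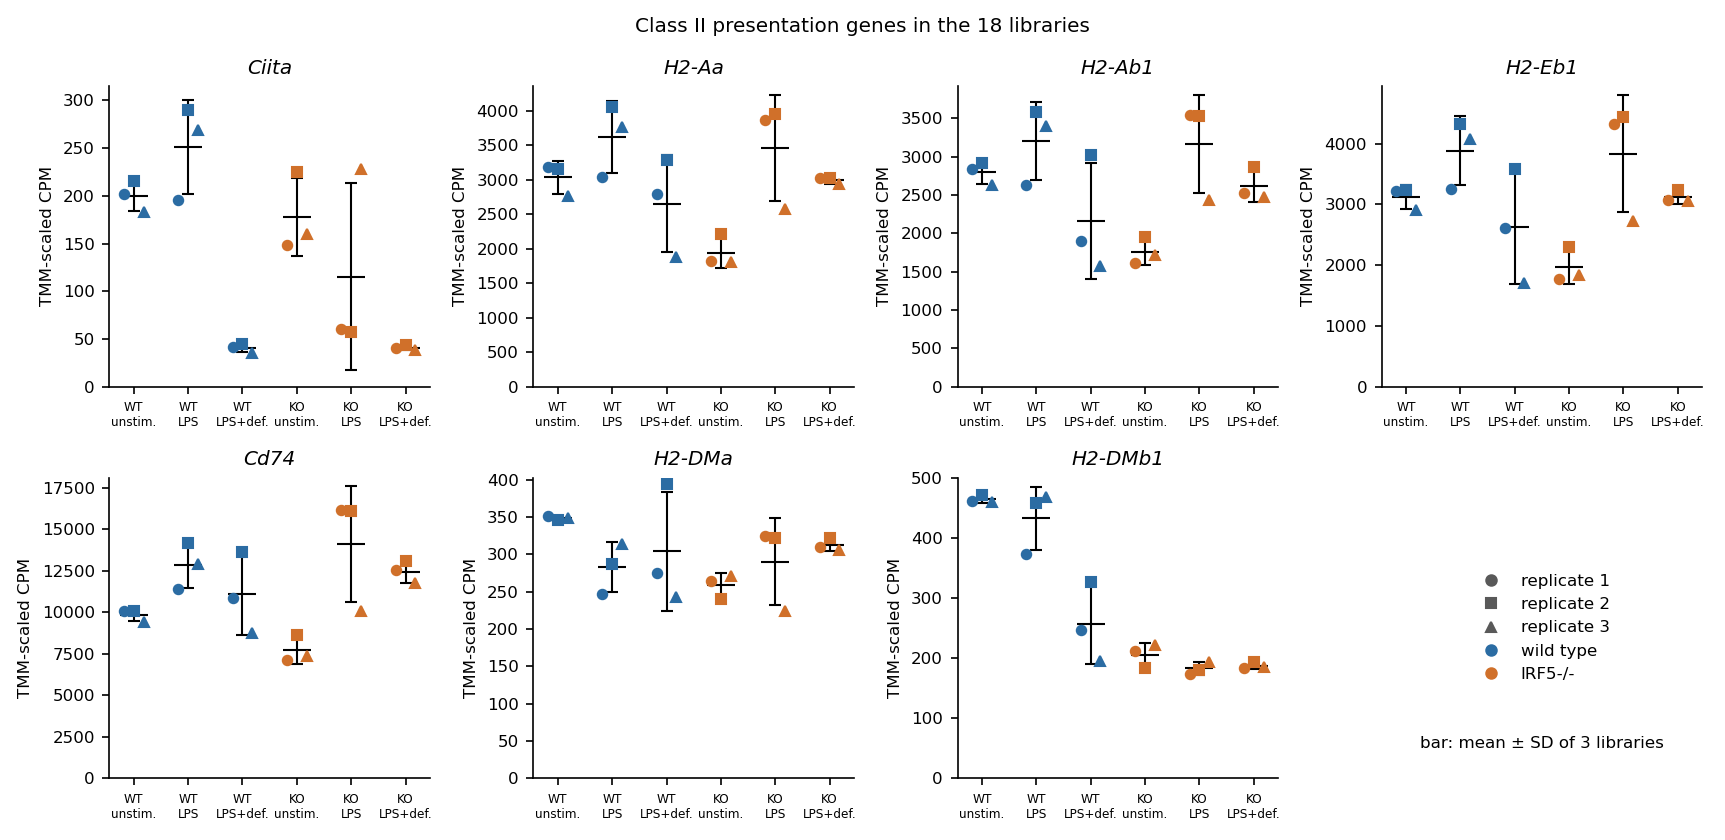
TMM-scaled CPM (y axis, from 0) of the 7 class II presentation genes in the 18 libraries, by group (x axis), with the mean and SD of the 3 libraries as a bar. The Ciita panel shows the 3 WT LPS defactinib libraries at 35.6 to 44.5 CPM, and IRF5 KO LPS DMSO replicate 3 at 228.6 CPM, apart from replicates 1 and 2.

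Ciita, the master coactivator, was the member with the largest difference between groups. In WT unstimulated libraries it was at 202.4, 215.6 and 183.1 CPM, and in WT LPS DMSO libraries at 196, 289.9 and 268.9 CPM. These groups overlapped. In WT LPS defactinib libraries Ciita was at 41.9, 44.5 and 35.6 CPM, below every library of the other WT groups. Defactinib before LPS lowered Ciita in WT cells by a log2 fold change of -2.63 ± 0.41 (SE, edgeR adjusted p = 8.41e-05). It was the single member of 7 that passed a false discovery rate (FDR) of 0.05 and a fold change of 2 together, here termed called. Of all genes tested, 29.1% were called in this comparison, and 18.6% were called lower. The call held under every alternative that was run, with adjusted p up to 0.000775. Libraries did not overlap between WT LPS DMSO and WT LPS defactinib for 2 members, Ciita and H2-DMb1, against 62.5% of all genes. The summed dendritic cell markers were at 16020 to 17500 CPM in WT LPS DMSO and at 11970 to 15070 in WT LPS defactinib libraries, and the summed plasmacytoid dendritic cell markers at 112.2 to 141.9 and at 29.7 to 38.6. The summed macrophage markers were at 9748 to 10320 and at 10870 to 15230 CPM. Among the 11 dendritic cell markers tested, 2 were called higher and 2 lower with defactinib, and so were 2 and 2 of the 9 macrophage markers. Over all genes 10.4% were called higher. Only 2 of 4 plasmacytoid dendritic cell markers were tested, and these 2 were called lower. Under 1 CPM in every library were 2 of the 4 in WT LPS DMSO and 3 in WT LPS defactinib. The part of these marker lists in the Ciita difference was not tested.

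In IRF5 KO cells the LPS DMSO libraries disagreed on Ciita. Unstimulated IRF5 KO libraries were at 148.4, 224.5 and 160.3 CPM, IRF5 KO LPS DMSO libraries at 60.4, 57.4 and 228.6 CPM, and IRF5 KO LPS defactinib libraries at 41.1, 43.3 and 38.9 CPM. Replicates 1 and 2 after LPS lay below every unstimulated library, and replicate 3 above every unstimulated library. With all libraries, the change with LPS in IRF5 KO cells was -0.62 ± 0.39 (edgeR adjusted p = 0.21). Without replicate 3 it was -1.59 ± 0.18 (adjusted p = 9.00e-07) and called. The defactinib difference in IRF5 KO cells was -1.49 ± 0.39 (adjusted p = 0.0516), just outside the FDR threshold. It was called with RLE size factors (adjusted p = 0.049), by library size alone (adjusted p = 0.0476) and by DESeq2 (adjusted p = 0.00314). It was also called without WT LPS defactinib replicate 2 or 3 (adjusted p = 0.0495 and 0.047), and, at -1.81 and -1.83, without replicate 1 or 2 of its own vehicle group (adjusted p = 0.0169 and 0.0172). It was -0.52 ± 0.17 without replicate 3 (adjusted p = 0.0671), and -2.49 when replicate 3 stood for the group alone (adjusted p = 1.59e-07). Of the IRF5 KO LPS DMSO libraries, 2 were closer to the defactinib libraries and 1 to the unstimulated ones. Summed macrophage markers were at 9936 to 12510 CPM in IRF5 KO LPS DMSO and at 18340 to 19260 CPM in IRF5 KO LPS defactinib libraries. Dendritic cell markers summed to 9643 to 9787 and to 8220 to 8266 CPM. With defactinib 0 of 9 macrophage markers were called, and 1 of 11 dendritic cell markers was called higher, against 0.919% of all genes called. The part of these lists was not tested.

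The same library bears on the comparison of genotypes. At rest the WT minus IRF5 KO difference of Ciita was 0.17 ± 0.38 (edgeR adjusted p = 0.858), with overlapping libraries. After LPS it was 1.12 ± 0.39 (adjusted p = 0.0252), a call, although the range of the IRF5 KO libraries took in 1 of the WT libraries. In the same groups the summed dendritic cell markers were at 16020 to 17500 CPM in WT and at 9643 to 9787 CPM in IRF5 KO libraries, and the plasmacytoid dendritic cell markers at 112.2 to 141.9 and at 30.5 to 41.8 CPM. Among the 11 dendritic cell markers tested, 2 were called higher and 2 lower in WT, against 25.8% of all genes called. Only 2 of 4 plasmacytoid dendritic cell markers were tested, and these 2 were called higher in WT. Under 1 CPM in every library were 2 of the 4 in WT and 3 in IRF5 KO. The part of these lists was not tested. The Ciita difference was 2.09 ± 0.18 without IRF5 KO LPS DMSO replicate 3 (adjusted p = 3.79e-08) and 0.12 with that library alone in its group (adjusted p = 0.723). Leaving out WT LPS DMSO replicate 2 or 3, or replicate 1 or 2 of IRF5 KO LPS DMSO, ended the call, and the difference was 0.78 to 1.06 (adjusted p = 0.0626 to 0.11). Scaling by library size alone, no filter on low counts and a fit of only these groups ended it as well (adjusted p = 0.0825 to 0.185). After LPS with defactinib the genotypes differed by -0.02 ± 0.39 (95% interval -0.84 to 0.81). The difference between the genotypes in the effect of defactinib was -1.14 ± 0.55 (adjusted p = 0.117) with all libraries and -2.11 ± 0.23 (adjusted p = 9.09e-07) without that replicate. The corresponding difference in the effect of LPS was 0.95 ± 0.54 (adjusted p = 0.235) with and 1.92 ± 0.23 (adjusted p = 4.04e-06) without it.

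The chain genes are H2-Aa and H2-Ab1, for the α and β chain of I-A, and H2-Eb1, for the β chain of I-E. The α chain entry of I-E, H2-Ea-ps, was near 0, as given further on. RNA of H2-Eb1 thus does not show assembled I-E. In the unstimulated cells every chain had the higher level in WT, with differences near the FDR threshold that fell on either side of it by setting. H2-Aa was at 3190, 3156 and 2760 CPM in WT unstimulated and at 1822, 2210 and 1807 CPM in IRF5 KO unstimulated libraries. H2-Ab1 was at 2833, 2917 and 2631 CPM against 1619, 1950 and 1714, and H2-Eb1 at 3230, 3235 and 2902 CPM against 1778, 2300 and 1835. For all 3 genes every WT library lay above every IRF5 KO library. The summed macrophage markers did not overlap either, with 9849 to 10190 CPM in WT and 10390 to 14760 CPM in IRF5 KO libraries, and their part was not tested. The log2 differences were 0.64 ± 0.19 for H2-Aa (edgeR adjusted p = 0.0282), 0.67 ± 0.20 for H2-Ab1 (adjusted p = 0.0338) and 0.66 ± 0.22 for H2-Eb1 (adjusted p = 0.055). H2-Aa and H2-Ab1 passed the FDR threshold and none of the 3 reached 2-fold. H2-Ab1 missed it without any 1 of the 6 unstimulated libraries (adjusted p = 0.0558 to 0.121) or without IRF5 KO LPS defactinib replicate 1 (adjusted p = 0.0504). H2-Aa missed it without WT unstimulated replicate 1 or 2 or IRF5 KO unstimulated replicate 1 or 3 (adjusted p = 0.0853 to 0.104). By library size alone both missed it (adjusted p = 0.0608 and 0.0703). H2-Eb1 passed with DESeq2 (adjusted p = 0.029), with the replicate block (adjusted p = 0.0216), in a fit of only these groups (adjusted p = 0.00041) and without any of 3 libraries of other groups (adjusted p = 0.0172 to 0.0218). With H2-DMb1, 3 of 7 members passed the FDR threshold at any fold, against 15.3% of all genes. At rest the libraries of the genotypes did not overlap for 6 of the 7 members, Ciita being the exception, against 51.4% of all genes. Called were 1 of 7 members, H2-DMb1, and 7.31% of all genes.

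With LPS and vehicle the chains missed the FDR threshold in WT cells and passed it under 2-fold in IRF5 KO cells, in the model of all groups. A fit of only the compared groups gave another outcome: the 3 chains missed the threshold in IRF5 KO (adjusted p = 0.0778 to 0.0911), and H2-Eb1 passed it in WT (0.31, adjusted p = 0.0191). In WT LPS DMSO libraries H2-Aa was at 3035, 4055 and 3759 CPM, H2-Ab1 at 2626, 3581 and 3400 CPM and H2-Eb1 at 3251, 4330 and 4076 CPM. The LPS differences in WT were 0.20 to 0.32 on the log2 scale, with 95% intervals from -0.23 to 0.78, and none passed. In WT cells 0 of the 7 members were called with LPS by edgeR or by DESeq2, against 21.3% of all genes, and 1, Cd74, had an unadjusted p under 0.05. In IRF5 KO LPS DMSO libraries H2-Aa was at 3869, 3947 and 2579 CPM, H2-Ab1 at 3541, 3525 and 2433 CPM and H2-Eb1 at 4329, 4446 and 2729 CPM. Replicate 3 was the lowest of its group for each chain and still lay above every IRF5 KO unstimulated library. The LPS differences in IRF5 KO were 0.83 ± 0.19 for H2-Aa (adjusted p = 0.00504), 0.85 ± 0.20 for H2-Ab1 (adjusted p = 0.00656) and 0.96 ± 0.22 for H2-Eb1 (adjusted p = 0.00576). The summed dendritic cell markers were at 5295 to 6114 CPM in IRF5 KO unstimulated and at 9643 to 9787 CPM in IRF5 KO LPS DMSO libraries, and in WT at 6077 to 6496 and at 16020 to 17500 CPM, and their part was not tested. No chain reached 2-fold, so that 0 of 7 members were called with LPS in IRF5 KO cells by edgeR, and 0 by DESeq2, against 13.3% of all genes. The unadjusted p was under 0.05 for 4 members, which also passed the FDR threshold, against 37.5% of all genes, and whose libraries did not overlap, against 40.1%.

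Leaving out IRF5 KO LPS DMSO replicate 3 brought these differences to 1.00 for H2-Aa, 1.00 for H2-Ab1 and 1.15 for H2-Eb1, just past the 2-fold line. H2-Eb1 was also called without IRF5 KO unstimulated replicate 2, at 1.08 (adjusted p = 0.0107). With Cd74 and Ciita, 5 of 7 members were called without LPS DMSO replicate 3, 4 higher and 1 lower, against 26.2% of all genes in that fit. The chains and Ciita differed from the unstimulated state in opposite directions in replicates 1 and 2. The test of the difference between the genotypes in the LPS effect gave -0.58 ± 0.26 for H2-Aa (adjusted p = 0.139), -0.65 ± 0.28 for H2-Ab1 (adjusted p = 0.123) and -0.64 ± 0.31 for H2-Eb1 (adjusted p = 0.162). Without replicate 3 these were -0.75 (adjusted p = 0.0123), -0.81 (adjusted p = 0.0196) and -0.84 (adjusted p = 0.0231), which passed the FDR threshold under 2-fold, as did Cd74 at -0.68 (adjusted p = 0.00592) and H2-DMa at -0.62 (adjusted p = 0.0135). With all libraries Cd74 was at -0.49 (adjusted p = 0.172) and H2-DMa at -0.47 (adjusted p = 0.168). With all libraries 0 of 7 members were called in this test by edgeR and by DESeq2, against 9.83% of all genes called. The unadjusted p was under 0.05 for 2 members. After LPS the WT minus IRF5 KO differences were 0.06 for H2-Aa, 0.02 for H2-Ab1 and 0.02 for H2-Eb1, with intervals inside -0.45 to 0.49. Without replicate 3 they were -0.11, -0.14 and -0.18 (adjusted p = 0.474 to 0.574).

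Defactinib before LPS gave lower means of the chains in WT cells, in libraries that overlapped. WT LPS defactinib libraries held H2-Aa at 2798, 3282 and 1887 CPM, H2-Ab1 at 1901, 3016 and 1576 CPM and H2-Eb1 at 2609, 3588 and 1714 CPM. Replicate 2 was the highest and replicate 3 the lowest for each chain, and replicate 2 lay within the range of the WT LPS DMSO libraries. The differences were -0.45 ± 0.19 for H2-Aa (edgeR adjusted p = 0.052), -0.57 ± 0.20 for H2-Ab1 (adjusted p = 0.0251) and -0.56 ± 0.22 for H2-Eb1 (adjusted p = 0.041). With Ciita and H2-DMb1, 4 of 7 members passed the FDR threshold at any fold, against 57.0% of all genes. Without WT LPS defactinib replicate 3 those of H2-Ab1 and H2-Eb1 were -0.35 and -0.30 and no longer passed the FDR threshold (adjusted p = 0.144 and 0.21). They also missed it without replicate 1, at -0.44 and -0.51 (adjusted p = 0.124 and 0.116), and without WT LPS DMSO replicate 2 (adjusted p = 0.118 and 0.152) or 3 (adjusted p = 0.0879 and 0.113). The same held by library size alone (adjusted p = 0.126 and 0.172) and in a fit of only these groups (adjusted p = 0.107 and 0.121). H2-Eb1 missed it too without any 1 of 5 IRF5 KO libraries (adjusted p = 0.0511 to 0.0636). Without replicate 2 they were -0.88 and -0.85 (adjusted p = 0.000764 and 0.00435), and H2-Aa passed as well at -0.63 (adjusted p = 0.0148). H2-Aa also passed with DESeq2 (adjusted p = 0.0431), with no filter (adjusted p = 0.0389), with the replicate block (adjusted p = 0.0181) and without WT LPS DMSO replicate 1 (adjusted p = 0.0401) or IRF5 KO LPS DMSO replicate 3 (adjusted p = 0.0169). In IRF5 KO cells the defactinib differences of the chains were -0.21 to -0.30 with intervals from -0.77 to 0.19. Without IRF5 KO LPS DMSO replicate 3 they were -0.38 for H2-Aa, -0.43 for H2-Ab1 and -0.49 for H2-Eb1 (adjusted p = 0.17 to 0.2).

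Cd74, the invariant chain that fills the groove of new class II molecules and guides them to endosomes, went with the chains on LPS. Its gene (ENSMUSG00000024610) lies on chr18:60803848-60812646 of mm10, plus strand, and includes the microRNA gene Mir5107 on the same strand. It was at 10060, 10100 and 9397 CPM in WT unstimulated, 11420, 14170 and 12940 CPM in WT LPS DMSO and 10890, 13650 and 8753 CPM in WT LPS defactinib libraries. In IRF5 KO cells it was at 7115, 8618 and 7397 CPM unstimulated, 16160, 16090 and 10090 CPM with LPS and DMSO, and 12530, 13110 and 11750 CPM with LPS and defactinib. All LPS-stimulated IRF5 KO libraries lay above all unstimulated ones. The LPS difference in IRF5 KO was 0.87 ± 0.17 (edgeR adjusted p = 0.00275), the smallest adjusted p of the 7 members in that comparison, and 1.06 ± 0.14 without replicate 3 (adjusted p = 3.81e-06). It missed the FDR threshold in a fit of only these groups (adjusted p = 0.0951). In WT it was 0.38 ± 0.17 (adjusted p = 0.0879), and passed in such a fit (adjusted p = 0.00128), with the replicate block (adjusted p = 0.0394) and when that replicate was left out (adjusted p = 0.0154). Defactinib differences of Cd74 were -0.21 ± 0.17 in WT (95% interval -0.58 to 0.15) and -0.18 ± 0.17 in IRF5 KO (interval -0.54 to 0.19), and the latter was -0.37 without replicate 3 (adjusted p = 0.109). After LPS the WT minus IRF5 KO difference of Cd74 was -0.14 ± 0.17 with all libraries (adjusted p = 0.521). Only the fit that left out LPS DMSO replicate 3 of IRF5 KO put Cd74 lower in WT past the FDR threshold, among those leaving out 1 library (-0.33 ± 0.14, adjusted p = 0.0432). At rest the WT minus IRF5 KO difference was 0.35 ± 0.17 (adjusted p = 0.206), which passed in a fit of only these groups (adjusted p = 0.00628) and without that library (adjusted p = 0.0448).

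H2-DM, a non-classical class II molecule, frees the groove from the last fragment of the invariant chain and edits the peptides. Its β chain gene H2-DMb1 was called between the genotypes at rest and after LPS, with the higher level in WT, and its α chain gene H2-DMa was not called. H2-DMb1 was at 461.4, 471.7 and 460.8 CPM in WT unstimulated and at 211.7, 183.8 and 222.9 CPM in IRF5 KO unstimulated libraries, a difference of 1.17 ± 0.14 (edgeR adjusted p = 3.69e-05) and a call. With LPS it was at 373.3, 458.1 and 468.5 CPM in WT LPS DMSO and at 174, 180.7 and 194.4 CPM in IRF5 KO LPS DMSO libraries, a difference of 1.24 ± 0.14 (adjusted p = 7.04e-06). Every WT library lay above every IRF5 KO library in both settings, against 50.9% of all genes without overlap after LPS. The unstimulated call held under every alternative that was run, and the call after LPS under all but scaling by library size alone, where the difference was 0.99 (adjusted p = 0.000105). The difference was 1.29 when replicate 3 of IRF5 KO LPS DMSO was left out. With Ciita, H2-DMb1 made 2 of 7 members called higher in WT than in IRF5 KO after LPS, against 25.8% of all genes called in either direction and 2195 of the 15663 genes called higher. The summed B cell markers were lower in WT unstimulated (0.619 to 0.918 CPM) than in IRF5 KO unstimulated libraries (1.68 to 2.56 CPM), the opposite direction to H2-DMb1. The summed mast cell and basophil markers were at 3.45 to 3.87 CPM in WT and at 31.4 to 34.4 CPM in IRF5 KO unstimulated libraries. Under 1 CPM in every unstimulated library were 7 of 7 B cell markers in WT and 6 in IRF5 KO. The same held for 4 of 5 mast cell and basophil markers in each genotype. The part of either list was not tested. After LPS the summed dendritic and plasmacytoid dendritic cell markers, given with Ciita, were higher in WT, the direction of H2-DMb1. The called dendritic cell markers went in either direction.

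With defactinib H2-DMb1 was lower in WT cells and not in IRF5 KO cells. WT LPS defactinib libraries were at 247.5, 327.2 and 196.1 CPM, all below the WT LPS DMSO libraries and all above the IRF5 KO LPS defactinib libraries at 184.2, 194.1 and 185.3 CPM. The WT difference was -0.75 ± 0.14 (edgeR adjusted p = 0.000395), under 2-fold. In IRF5 KO it was 0.04 ± 0.14 (adjusted p = 0.903), and 0.08 without LPS DMSO replicate 3. The difference between these effects was -0.79 ± 0.20 (adjusted p = 0.00612), the only one of the 7 that passed the FDR threshold in the test of genotype against defactinib, against 37.0% of all genes, and 0 of 7 passed with the fold threshold as well, by edgeR or DESeq2, against 22.8% of all genes. With LPS and defactinib the genotypes differed by 0.45 ± 0.14 (adjusted p = 0.0214), a value of 0.24 without WT LPS defactinib replicate 2 (adjusted p = 0.116) and 0.64 without replicate 3 (adjusted p = 0.00134). It also missed the FDR threshold without IRF5 KO LPS defactinib replicate 1 or 3 and in a fit of only these groups (adjusted p = 0.0565 to 0.0678). There 0 of 7 members were called by either tool, 1 had an unadjusted p under 0.05 and passed the FDR threshold, and of all genes 17.3% were called and 36.3% passed the FDR threshold. Dendritic cell markers there summed to 11970 to 15070 CPM in WT and to 8220 to 8266 CPM in IRF5 KO libraries. Macrophage markers summed to 10870 to 15230 and to 18340 to 19260 CPM. Called in WT were 3 of 11 dendritic cell markers higher and 3 lower, and 2 of 9 macrophage markers lower. The part of these lists was not tested.

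H2-DMa was at 351.3, 346.3 and 348.1 CPM in WT unstimulated and at 264.9, 240.8 and 271.1 CPM in IRF5 KO unstimulated libraries, without overlap, and the difference was 0.43 ± 0.16 (edgeR adjusted p = 0.0919). With LPS it was at 247.3, 287.4 and 314.1 CPM in WT and at 325.1, 322.2 and 223.4 CPM in IRF5 KO libraries, which overlapped. With LPS and defactinib it was at 274.9, 394.3 and 243.4 CPM in WT and at 310.1, 322.2 and 306.1 CPM in IRF5 KO libraries. With all libraries and the model used throughout, no comparison of H2-DMa passed the FDR threshold. In a fit of only the groups compared it passed at rest between genotypes (0.44, adjusted p = 0.000106) and with LPS in WT (-0.30, adjusted p = 0.00487), and by library size alone with LPS in WT (-0.68, adjusted p = 0.00138). The difference at rest also passed when either replicate 3 of IRF5 KO LPS DMSO (adjusted p = 0.021) or replicate 2 of WT LPS defactinib (adjusted p = 0.0257) was left out. With all libraries its defactinib differences were 0.10 ± 0.16 in WT and 0.11 ± 0.16 in IRF5 KO, the latter -0.05 without LPS DMSO replicate 3. In IRF5 KO cells 0 of 7 members were called with defactinib by edgeR, against 0.919% of all genes. DESeq2 called 1, Ciita, which was also the member with an unadjusted p under 0.05.

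**Figure D2:**
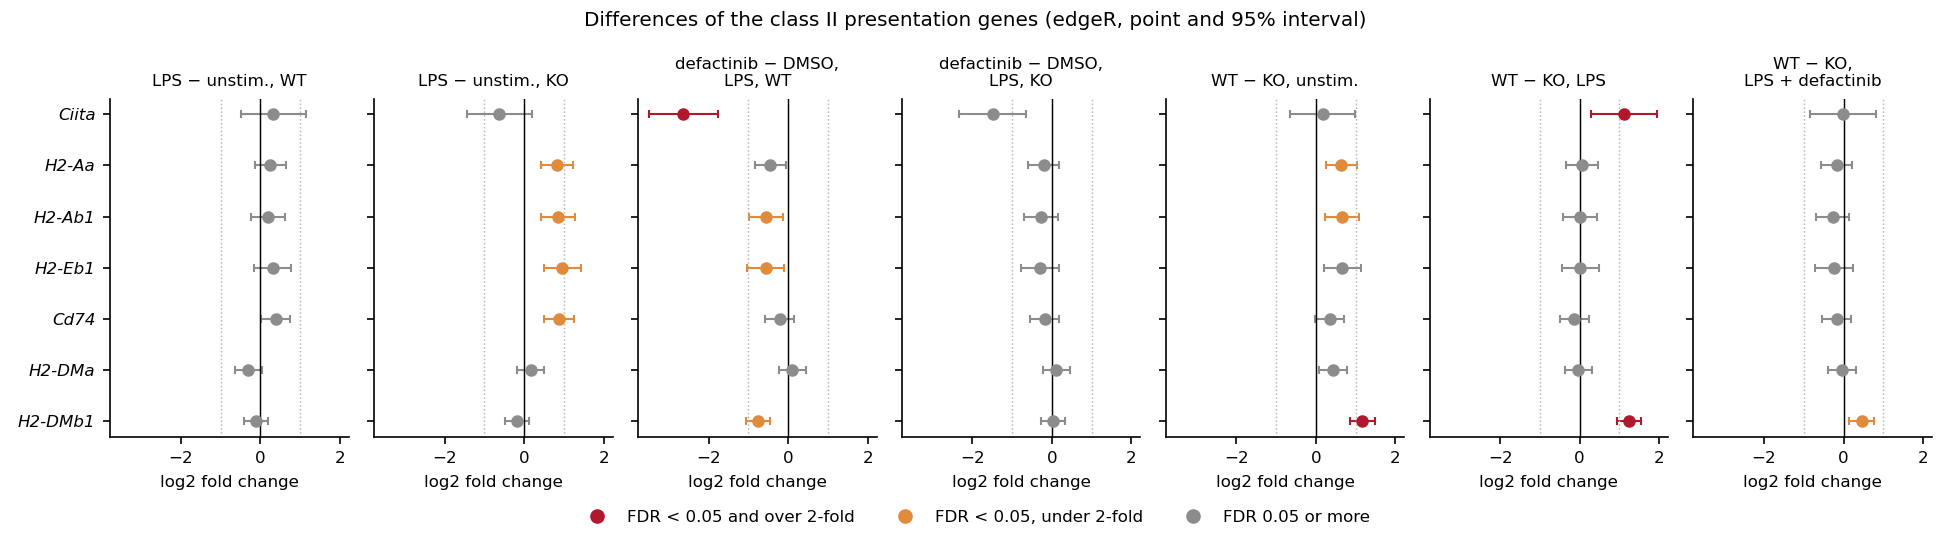
Log2 fold changes (x axis) of the 7 genes in 7 comparisons (panels), as edgeR estimates with 95% intervals, where red marks an FDR below 0.05 with a fold change over 2, orange an FDR below 0.05 alone and grey neither. Red points are Ciita with defactinib in WT at -2.63, H2-DMb1 in WT against IRF5 KO at 1.17 unstimulated and 1.24 after LPS, and Ciita at 1.12 after LPS.

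Ratios within a library do not depend on its scaling. Ciita per 1000 units of H2-Ab1, both per kilobase, was 21.7 to 25.2 in the 6 WT libraries without defactinib and 4.59 to 7.04 in the WT LPS defactinib libraries. In IRF5 KO libraries it was 28.6 to 35.9 unstimulated, 5.32, 5.08 and 29.3 in LPS DMSO replicates 1, 2 and 3, and 4.71 to 5.08 with LPS and defactinib. The libraries thus fell at either 21.7 or more or 7.04 or less, with none between. The ratio of H2-DMb1 to H2-DMa per kilobase was 1.45 to 1.76 in the 6 WT libraries without defactinib and 0.890 to 0.995 in the WT LPS defactinib libraries. It was 0.843 to 0.909 in IRF5 KO unstimulated libraries, 0.592, 0.620 and 0.962 in the LPS DMSO replicates and 0.656 to 0.669 with LPS and defactinib. The ratio of H2-Aa to H2-Ab1 stayed between 0.917 and 1.05 in 17 libraries and was 1.29 in WT LPS defactinib replicate 1.

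**Figure D3:**
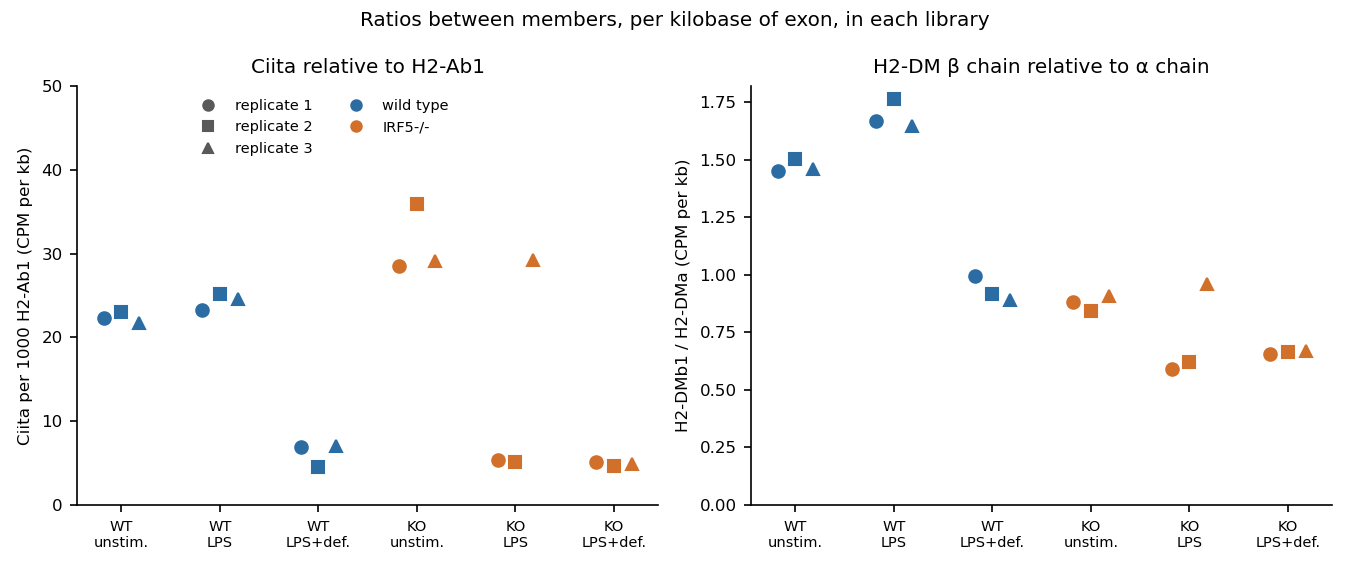
Ciita per 1000 units of H2-Ab1 (left y axis) and H2-DMb1 over H2-DMa (right y axis), both from CPM per kb, in each of the 18 libraries by group (x axis). The WT LPS defactinib libraries lie at 4.59 to 7.04 on the left and 0.890 to 0.995 on the right, and IRF5 KO LPS DMSO replicate 3 lies apart from replicates 1 and 2 in both panels.

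Across the 18 libraries the logarithms of the chains moved together, which is given as a description, since the libraries share groups and scaling. Pearson's r was 0.99 for H2-Aa with H2-Eb1, 0.98 for H2-Ab1 with H2-Eb1 and 0.96 for H2-Aa with H2-Ab1. Cd74 followed the chains at 0.86 to 0.91. Ciita did not, with 0.00 to 0.12 against the chains and -0.32 against Cd74, while its r with H2-DMb1 was 0.60. Without IRF5 KO LPS DMSO replicate 3 the r of Ciita was 0.03 to 0.14 with the chains, -0.31 with Cd74 and 0.68 with H2-DMb1. Among 8452 genes of sufficient level, those most like the mean of the chains and Cd74 were Noct at 0.87 and Zdhhc4, Atp6v1g1 and Ppia at 0.83 each. Those most like Ciita were Pigm and Zbed4 at 0.98, Mtss1 at 0.98, and Nfatc1 and Rin3 at 0.97. Nfatc1, a calcium-regulated transcription factor, was at 8.46 CPM in the mean of WT LPS defactinib against 48 in WT LPS DMSO libraries.

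Of the other genes of the class II region, H2-Oa and H2-Ob encode H2-O, an inhibitor of H2-DM, and H2-DMb2 is another β chain gene of H2-DM. With LPS, 3 of 5 listed genes were called lower in WT than in IRF5 KO, against 11.8% of all genes, and 1, H2-Ea-ps, was called higher at a level near 0. Lower were H2-DMb2 by -1.19 ± 0.21 (edgeR adjusted p = 0.000233), H2-Oa by -1.15 ± 0.19 (adjusted p = 0.000163) and H2-Ob by -1.07 ± 0.23 (adjusted p = 0.00146). H2-DMb2 was at 59.4, 83.1 and 90.1 CPM in WT LPS DMSO and at 196.2, 194.3 and 140.7 CPM in IRF5 KO LPS DMSO libraries, the direction opposite to that of H2-DMb1. Without replicate 3 of the latter the same 3 were called, at -1.33 for H2-DMb2, -1.39 for H2-Oa and -1.27 for H2-Ob. The summed B cell markers went the same way, with 0.603 to 1.84 CPM in WT LPS DMSO and 2.15 to 3.20 CPM in IRF5 KO LPS DMSO libraries, and so did the mast cell and basophil markers, with 4.27 to 5.14 and 27.4 to 52.2 CPM. Under 1 CPM in every library were 6 of 7 B cell markers in either group. The same held for 4 of 5 mast cell and basophil markers in WT and 3 in IRF5 KO. The part of either list was not tested. At rest H2-Oa was also called lower in WT, by -1.11 ± 0.19 (adjusted p = 0.000816), as were 3.51% of all genes. H2-Eb2, a β chain gene of low level, rose with LPS by 1.496 ± 0.31 in WT (adjusted p = 0.00104) and by 1.44 ± 0.31 in IRF5 KO (adjusted p = 0.00409). The entry H2-Ea-ps, named as a pseudogene of the I-E α chain, reached at most 1.17 CPM in any library, while its partner H2-Eb1 was at 1714 CPM or more in all of them.

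Of 15 antigen processing genes, 2 were called higher with LPS in WT cells, a share near the 11.6% of all genes, Cd83, which protects surface class II from degradation (1.83 ± 0.40, edgeR adjusted p = 0.0016), and Cd44, an adhesion receptor that pairs with the invariant chain (1.06 ± 0.14, adjusted p = 2.36e-05). With defactinib in WT the same 2 of 15 genes were called lower, against 18.6% of all genes, Cd83 by -1.47 ± 0.39 (adjusted p = 0.00518) and Cd44 by -1.15 ± 0.14 (adjusted p = 9.29e-06). Ctss, the protease that trims the invariant chain in myeloid cells, was at 2451 CPM or more in every WT library and was called in no comparison. Ctsl, another lysosomal protease, was lower in WT than in IRF5 KO unstimulated cells by -1.86 ± 0.13 (adjusted p = 1.91e-07) and with LPS and defactinib by -2.11 ± 0.13 (adjusted p = 9.57e-09), and after LPS with vehicle by -0.83 ± 0.13 (adjusted p = 8.08e-05), under 2-fold and so not called. March1, the ubiquitin ligase that takes class II off the surface, fell with LPS in IRF5 KO cells by a log2 fold change of -1.11 (adjusted p = 0.00764), or -1.54 without LPS DMSO replicate 3.

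Of 15 tested activators of Ciita, 5 rose with LPS in WT, with 11.6% of all genes called higher: Irf1 by 4.18 ± 0.43 (edgeR adjusted p = 2.23e-06), Irf8 by 3.24 ± 0.69 (adjusted p = 0.00143), Stat5a by 3.05 ± 0.30 (adjusted p = 1.41e-06) and Stat5b by 1.59 ± 0.17 (adjusted p = 2.23e-06) were the largest. With defactinib in WT, 7 of 15 fell, with 18.6% of all genes called lower, and 0 rose, among them Irf1, the interferon-induced activator of a Ciita promoter, by a log2 fold change of -4.83 ± 0.45 (adjusted p = 6.89e-07). Irf1 was at 543.1, 621.8 and 569.9 CPM in WT LPS DMSO and at 22.8, 19.1 and 18.96 CPM in WT LPS defactinib libraries. Irf4, at 480.2, 410.5 and 456.4 CPM in WT LPS DMSO and 27, 15.2 and 30.6 CPM in WT LPS defactinib libraries, fell by 4.21 on this scale (adjusted p = 4.79e-06). Stat5a, which signals from the GM-CSF receptor, fell by 3.26 (adjusted p = 7.03e-07), and Irf8 fell by 2.37 (adjusted p = 0.00714), with WT LPS defactinib replicate 3 at 260.3 CPM and the other two at 39.8 and 41.1 CPM. In IRF5 KO cells 0 of these 15 genes were called with defactinib by edgeR or DESeq2, where 0.919% of all genes were called, with an unadjusted p under 0.05 for 2.

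Of 6 listed repressors of Ciita or class II, 4 rose with LPS in WT, against 11.6% of all genes called higher, led among those of sufficient level by Socs3 at 2.73 ± 0.31 (edgeR adjusted p = 5.55e-06). With defactinib 5 of 6 fell in WT, against 18.6% of all genes called lower: Socs1, an inhibitor of interferon signalling, by a log2 fold change of -4.85 ± 0.87 (adjusted p = 0.000287), Prdm1, which silences Ciita in plasma cells and dendritic cells, by -2.47 ± 0.28 (adjusted p = 4.64e-06), Socs3 by -1.57 ± 0.30 (adjusted p = 0.000441), Bcl6 by -1.44 ± 0.18 (adjusted p = 8.27e-06), and Il10, which was at 0.417 CPM or less in all libraries. In IRF5 KO cells Prdm1 rose with defactinib by 1.37 ± 0.27 (adjusted p = 0.0188, with 0.160% of all genes called higher), the only called gene of all 53 tested on the 5 lists in that comparison, and 1.07 without LPS DMSO replicate 3 (adjusted p = 0.00365).

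Of the 12 proteins that assemble on the X and Y boxes or join CIITA there, 4 fell and 1 rose with defactinib in WT, where 18.6% of all genes were called lower and 10.4% higher. Nfya, a subunit of the Y box factor, fell by 1.88 (edgeR adjusted p = 1.46e-06), and Rfx5 and Rfxap, subunits of the X box factor, by 1.59 (adjusted p = 0.000625) and 1.53 (adjusted p = 2.77e-05). Ep300, an acetyltransferase that joins CIITA, fell by 1.57 (adjusted p = 3.56e-06), and Rfxank, the other subunit of the X box factor, rose by 1.20 ± 0.18 (adjusted p = 4.75e-05). Rfx5 was at 25.8, 32.1 and 25.4 CPM in WT LPS DMSO and at 10.2, 5.77 and 11.7 CPM in WT LPS defactinib libraries. After LPS it was higher in WT than in IRF5 KO by 1.62 ± 0.32 (adjusted p = 0.000687), and 6 of 15 activators were called higher too, against 2195 of the 15663 genes. With LPS and defactinib 4 of 15 activators, 3 of 6 repressors and 3 of the 12 box proteins were called lower in WT, against 8.87% of all genes called lower. Called higher in WT there were 0 activators, 0 repressors and 1 box protein, with 17.3% of all genes called in either direction. After LPS without defactinib and without IRF5 KO LPS DMSO replicate 3, where Irf1 was at 212.8 CPM against 51.4 and 50.5 CPM in the others, 7 of 15 activators were called higher in WT, against 3324 of the 16037 genes tested then, and Rfx5 was at 2.25. The median log2 fold change with defactinib in WT was -0.91 for the activators, -2.02 for the repressors, -0.56 for the X and Y box proteins and 0.35 for the processing genes, beside 0.09 for all genes tested.

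**Figure D4:**
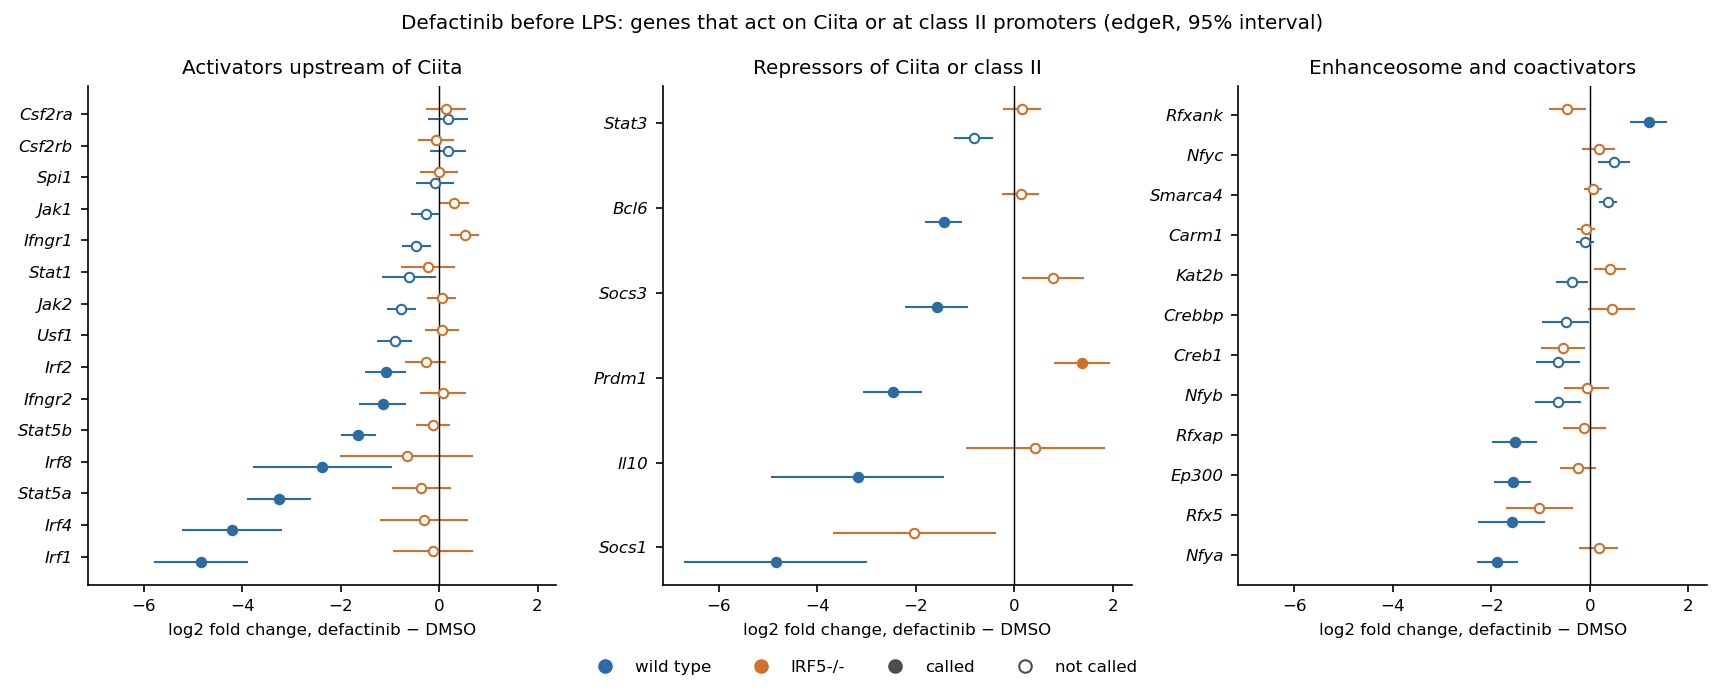
Log2 fold change with defactinib before LPS (x axis, edgeR estimate and 95% interval) of listed activators and repressors of Ciita and of proteins that act at the X and Y boxes, in WT (blue) and IRF5 KO cells (orange), filled where called. In WT, 7 activators, 5 repressors and 4 box proteins are filled on the lower side, and in IRF5 KO cells Prdm1 alone is filled, at 1.37.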

How the data were processed

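RNA of 18 BMDM cultures was sequenced as 150 bp read pairs. According to the study's methods, the labels and the file header, the authors aligned them to mm10 with STAR and counted unique pairs per Ensembl gene over exons, reverse stranded, with featureCounts 1.6.3. The deposited table holds these counts, without normalization, for 50600 gene identifiers, of which 50376 had a symbol in GENCODE. Columns were matched to samples by their headings.

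Counts were tested in R 4.3.3 by edgeR 4.0.16 (quasi-likelihood F test, two-sided), with TMM scaling, filterByExpr over the 6 groups and a robust fit of 6 group means to all 18 libraries. p-values were adjusted by Benjamini-Hochberg over all 15663 tested genes. A call needed an FDR below 0.05 with a fold change over 2, the thresholds of the study's methods. The study itself used DESeq2, and DESeq2 1.42.0 was an alternative here. Standard errors are the log2 fold change divided by the square root of F. The script was tested on simulated counts. Genes are compared by CPM per kb of counted exon. The members and lists were chosen with earlier results of these data known, and so were the motifs. All members are named, and of each list up to 4 called genes per comparison with the largest change and a mean log2 CPM of at least 0. Other genes are named as markers, for their likeness to a member, as the targeted gene, or, like Ctss, Il10 and H2-Ea-ps, after their values were seen. Alternatives were other scalings, no filter, DESeq2, no fold threshold, leaving out each library, fitting the compared groups by themselves and adding the replicate number as a block.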

Additional observations from a re-analysis of the deposited data

Results flagged for a closer look

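The effect of defactinib on H2-DMb1 differed between the genotypes. The test of that difference in edgeR gave -0.79 on the log2 scale (adjusted p = 0.00612), with -0.75 in WT and 0.04 in IRF5 KO cells. All 3 WT LPS defactinib libraries lay below the 3 WT LPS DMSO libraries, and the IRF5 KO libraries overlapped. The difference was -0.84 (adjusted p = 0.00215) without IRF5 KO LPS DMSO replicate 3 and -0.45 (adjusted p = 0.103) with scaling by library size alone, which moved the median of all genes by 0.33 in this comparison.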

How the results depend on the processing

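The 7 genes in 9 comparisons gave 63 log2 fold changes, recomputed under 1610 alternatives. A call changed in 36 and a sign in 78, none of them the sign of a called difference. Scaling by library size alone shifts the median of all genes by -0.38 (LPS, WT) to 0.33 (genotype by defactinib). It gave 1 called member for defactinib in IRF5 KO and 0 for the genotypes after LPS. It reversed LPS in WT for H2-Aa (-0.13), H2-Ab1 (-0.18), H2-Eb1 (-0.064) and Ciita (-0.051). It also reversed H2-DMa with LPS (-0.087) and defactinib (-0.0042) and H2-DMb1 with defactinib (-0.095) in IRF5 KO. The genotype difference after LPS became -0.17 for H2-Aa, -0.22 for H2-Ab1 and -0.21 for H2-Eb1, and that with defactinib 0.041 for H2-DMa and 0.063 for Ciita. The genotype by defactinib term became 0.0805 for H2-Aa, 0.025 for H2-Ab1, 0.0535 for H2-Eb1, 0.31 for H2-DMa and 0.28 for Cd74, and the genotype by LPS term -0.078 for H2-DMb1. The median level over genes and groups was 2334 CPM by library size alone.

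RLE size factors and DESeq2 each called 1 member for defactinib in IRF5 KO. No filter, and a fit of only the groups compared, each called 1 after LPS between genotypes. That fit reversed H2-Ab1 (-0.0201) and H2-Eb1 (-0.017) there, Ciita between genotypes with defactinib (0.019) and H2-DMa by genotype and defactinib (0.0006). By FDR alone, 4 members passed for LPS in IRF5 KO, 4 for defactinib in WT, 3 between genotypes at rest, 1 with defactinib and 1 for genotype by defactinib. Over all genes the replicate numbers gave little sign of pairing: the correlation of deviations from the group mean passed 0.1 in 4 of 45 same-number pairs. Its median was 0.005 and its highest value 0.278, which does not settle whether samples were paired. With the block the standard error at rest went from 0.2211 to 0.1807 for H2-Eb1 and from 0.1617 to 0.1606 for H2-DMa. With the replicate block the members called were 0 and 0 for LPS in WT and IRF5 KO, 1 and 0 for defactinib, 1, 2 and 0 between genotypes and 0 for both differences of effects, so that it changed no count.

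Leaving out each library in turn gave 0 to 5 called members for LPS in IRF5 KO, 0 to 1 for defactinib in IRF5 KO, 1 to 2 between genotypes after LPS, and 0 to 1 for each difference of effects. The 5 and both 1s of the differences came without IRF5 KO LPS DMSO replicate 3. Signs turned within these ranges: defactinib in WT, H2-DMa -0.12 to 0.27; defactinib in IRF5 KO, H2-DMa -0.049 to 0.18 and H2-DMb1 -0.011 to 0.083; genotypes after LPS, H2-Aa -0.11 to 0.16, H2-Ab1 -0.14 to 0.13, H2-Eb1 -0.18 to 0.12 and H2-DMa -0.20 to 0.0396; genotypes with defactinib, H2-Aa -0.35 to 0.0445, H2-Eb1 -0.53 to 0.016, H2-DMa -0.27 to 0.12, Cd74 -0.34 to 0.0016 and Ciita -0.082 to 0.092; genotype by defactinib, H2-Eb1 -0.53 to 0.011, H2-DMa -0.22 to 0.17 and Cd74 -0.19 to 0.16; genotype by LPS, H2-DMb1 -0.0041 to 0.15.

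With IRF5 KO LPS DMSO replicate 3 alone in its group, chosen after seeing the data and assuming it varies like other groups, 1 member each was called for defactinib in IRF5 KO and between genotypes after LPS. With LPS in IRF5 KO, H2-DMa was -0.20 and Ciita 0.38. With defactinib in IRF5 KO, H2-Aa was 0.20, H2-Ab1 0.091, H2-Eb1 0.18, H2-DMb1 -0.066 and Cd74 0.29. Between genotypes after LPS, H2-DMa was 0.32 and Cd74 0.33. For genotype by LPS, H2-DMb1 was -0.038 and Ciita -0.056. The cause of these changes was not tested.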
